A study of Rattus norvegicus with 16 samples.

Results

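The skeletal muscle contractile genes are a set of 40 genes that encode the filaments, the calcium machinery and the energy enzymes of striated muscle fibres. They were taken from the gene table of a study of rat knee cartilage by their symbols, as listed for the set and not by a threshold on their levels. Of the 40, 35 were found among 23552 genes: 11 of 14 that mark fast fibres, 6 of 6 that mark slow fibres and 18 of 20 that both fibre types use. Myh1, Myh2, Atp2a1, Ttn and Tcap were not analysed here. Levels are given as FPKM, in which fragments are scaled by transcript length and by library size so that genes can be compared. All 35 reached 1 FPKM in 4 or more libraries of the 16, which placed them among the 14337 genes tested.

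RNA came from knee cartilage of rats labelled as 10 weeks old, and 16 libraries were made, 4 per group. One group was healthy and one osteoarthritic; the other two were osteoarthritic cartilage after treatment with hyaluronic acid, cells and a drug (here the HA group), and osteoarthritic cartilage after treatment with a coacervate, cells and a drug (here the coacervate group). A coacervate is a polymer-rich liquid phase that can carry other substances. Sham and PBS are the library names of the healthy group and of the group labelled only as osteoarthritic. The labels do not say what these names stand for. Strain, sex, the way osteoarthritis was brought about, the drug, the cells and the make-up of the coacervate are not given in the labels. They also leave unsaid whether the libraries of a group came from separate animals, so each p-value below measures the spread between these libraries, which may be technical.

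A muscle fibre shortens when myosin heads of the thick filament pull on actin of the thin filament. Troponin and tropomyosin on the thin filament hold the heads off until calcium is released from the sarcoplasmic reticulum through the ryanodine receptor. Fast and slow fibres carry separate genes for most of these parts, so the balance between partner genes reads out which fibre type a muscle transcript came from. Cartilage itself contains no muscle fibres, and the muscles that move the knee lie beside the joint.

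Each library held between 36988722 and 50725189 counts. Of 16 cartilage genes found, 14 had an FPKM of at least 1 in every library, and Matn1 stayed under 1 in all of them. A pair of osteoarthritic libraries, replicates 2 and 3, stood apart: haemoglobin genes took 22.2% and 21.7% of their counts, against 10.2% to 16.3% elsewhere. Their summed FPKM of cartilage genes was 518 and 640.4, with a range of 672 to 1497 in the other libraries. A second pair, coacervate replicates 2 and 3, held more muscle transcripts than the other libraries.

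Promoters of 4 members are shown because Acta1 and Ckm were the most abundant muscle transcripts and because Tnni2 and Tnni1 are fast and slow partners. Each sequence runs 5′ to 3′ from 250 bases before to 50 bases after the start site in RefSeq's GRCr8 annotation, and capitals mark CAGCTG or TATAAA on either strand.
Acta1: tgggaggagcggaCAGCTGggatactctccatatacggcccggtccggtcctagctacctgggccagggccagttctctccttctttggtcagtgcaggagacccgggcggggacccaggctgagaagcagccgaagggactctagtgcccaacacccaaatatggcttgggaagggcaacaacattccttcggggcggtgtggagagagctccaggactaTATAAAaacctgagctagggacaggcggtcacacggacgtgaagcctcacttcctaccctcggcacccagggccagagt
Ckm: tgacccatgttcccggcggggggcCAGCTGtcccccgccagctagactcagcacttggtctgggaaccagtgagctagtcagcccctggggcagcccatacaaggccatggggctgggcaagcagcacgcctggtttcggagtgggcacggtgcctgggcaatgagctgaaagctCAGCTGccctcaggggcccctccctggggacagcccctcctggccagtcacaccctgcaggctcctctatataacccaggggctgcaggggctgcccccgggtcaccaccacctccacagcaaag
Tnni2: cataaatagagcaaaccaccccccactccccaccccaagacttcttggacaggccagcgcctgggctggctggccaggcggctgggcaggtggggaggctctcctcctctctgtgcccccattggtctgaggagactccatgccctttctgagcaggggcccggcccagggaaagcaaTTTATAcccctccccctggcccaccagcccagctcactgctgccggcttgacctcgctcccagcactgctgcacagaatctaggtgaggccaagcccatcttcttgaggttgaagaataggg
Tnni1: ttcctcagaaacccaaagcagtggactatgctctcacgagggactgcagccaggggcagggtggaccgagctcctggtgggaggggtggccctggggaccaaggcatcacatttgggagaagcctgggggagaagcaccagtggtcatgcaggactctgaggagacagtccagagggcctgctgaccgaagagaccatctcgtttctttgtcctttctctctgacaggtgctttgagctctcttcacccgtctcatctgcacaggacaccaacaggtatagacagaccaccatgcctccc
They lie at chr19:68784145-68784444 (minus strand), chr1:88189211-88189510 (plus), chr1:207024240-207024539 (plus) and chr13:49781279-49781578 (plus). CAGCTG is one form of the E-box CANNTG, to which MyoD-family factors are known to bind. Of the 35 members, 30 matched a RefSeq promoter. CAGCTG was present in 13 of the 30 (43.3%) and in 15.1% of all 33469 promoters, and CANNTG, which contains it, in 29 (96.7%) and 72.1%. TATAAA, a form of the TATA box that places the start of transcription, was present in 9 (30.0%) and 14.2%. Both strands were searched. For each member, only the first promoter listed for its symbol was counted. The 33469 are all promoters listed, those of the members included, so the sets are unlike. The Tnni1 window held neither CAGCTG nor TATAAA. These are matches of letters, and binding was not measured.

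Muscle transcripts were present in every library and most abundant in the coacervate group, by way of replicates 2 and 3. The 35 genes took 1.37%, 1.22%, 0.973% and 1.18% of the counts in healthy replicates 1 to 4, and 0.981%, 0.479%, 0.645% and 0.687% in the osteoarthritic ones. In the HA group they took 0.736%, 0.675%, 0.629% and 0.765%, and in the coacervate group 0.919%, 1.55%, 3.04% and 0.905%. The means were 1.18% ± 0.165, 0.698% ± 0.209, 0.701% ± 0.0610 and 1.60% ± 1.004 (SD, n = 4 each). All 4 HA libraries lay below the lowest healthy one, and osteoarthritic replicate 1 alone of its group reached the healthy range. Coacervate replicates 1 and 4 lay just below the healthy range, and replicates 2 and 3 above it. In such bulk libraries fewer muscle cells and less muscle RNA per cell cannot be told apart.

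**Figure D1:**
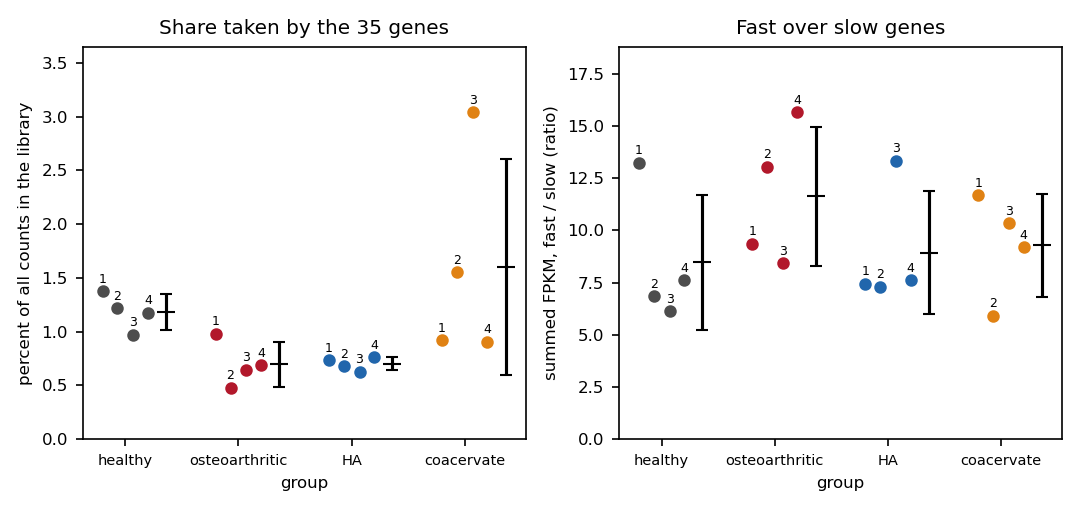
Left, percent of each library's counts taken by the 35 muscle genes; right, summed FPKM of the 11 fast genes divided by that of the 6 slow genes. Points are libraries numbered by replicate and black bars are the mean ± SD of 4; coacervate replicate 3 stands at 3.04% on the left, and the groups overlap on the right.

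Levels differed over a wide range between members. In healthy cartilage the highest was Acta1, alpha-actin of the thin filament, at 1199 ± 153 FPKM, followed by Ckm, muscle creatine kinase, at 662 ± 93.8, and Mylpf, the fast regulatory light chain, at 464 ± 87.1 (SD, n = 4). At the other end were Ryr1, the calcium release channel, at 7.265 ± 0.648, Xirp1, an actin-binding repeat protein, at 5.32 ± 0.721, and Igfn1, a protein of the Z-disc, at 2.235 ± 0.681. Coacervate replicate 3 was the highest of the 16 libraries for all 35 members. The lowest was osteoarthritic replicate 2 for 20 members, HA replicate 3 for 6 and osteoarthritic replicate 4 for 5, and HA replicates 1 and 2 for the other 4 together.

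**Figure D2:**
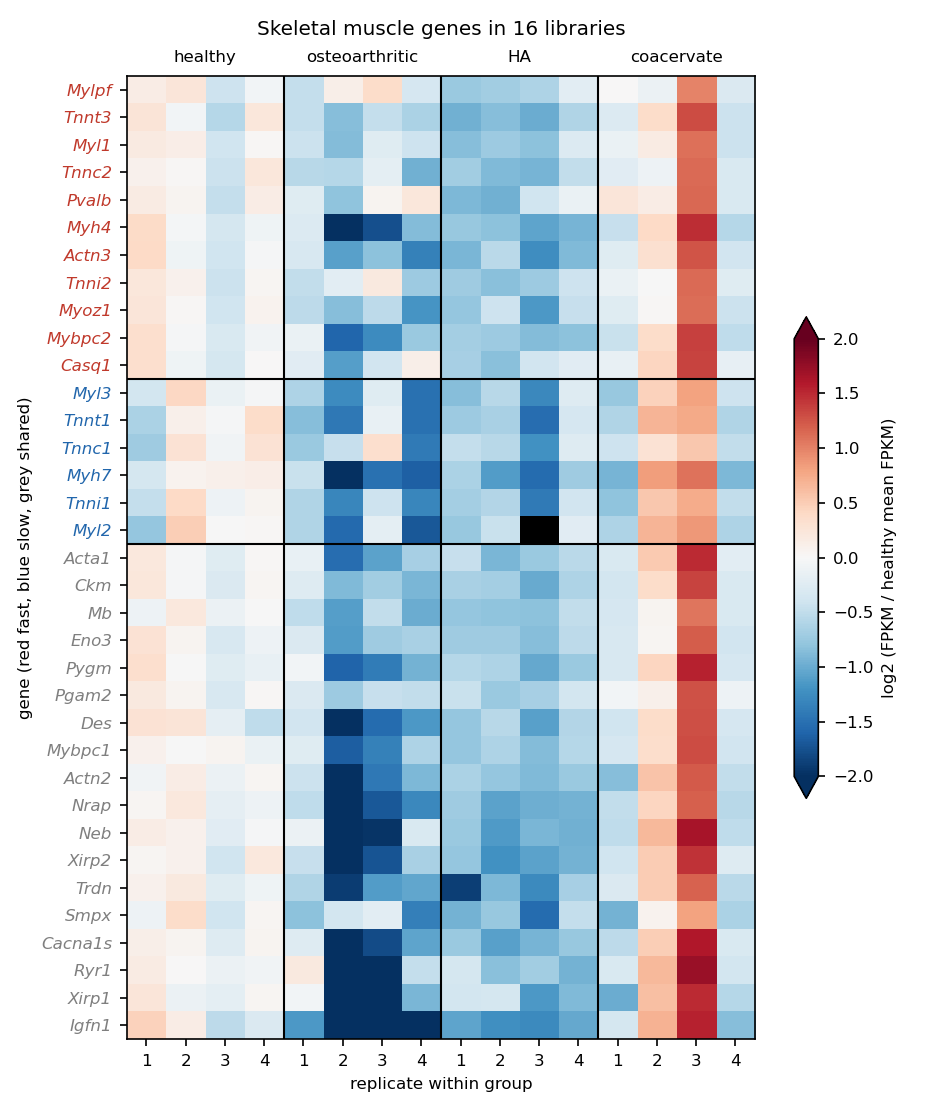
Level of each of the 35 genes in each library as log2 of its FPKM over the healthy mean, with fast genes at the top, slow genes in the middle and shared genes below; colours saturate at -2 and 2, and black marks Myl2, which has no counts in HA replicate 3. The column of coacervate replicate 3 is red throughout, and in osteoarthritic replicates 2 and 3 the deepest blue takes in the long genes Neb and Ryr1.

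Among fast thick-filament genes, Mylpf (ENSRNOG00000017645, rn6 chromosome 1, 198655742 to 198658583) had 513, 547, 349 and 447 FPKM in healthy replicates 1 to 4, 335, 505, 599.9 and 366 in osteoarthritic, 276, 288, 302 and 402 in HA and 466, 428, 922 and 381 in coacervate cartilage. It was high in osteoarthritic replicates 2 and 3, within or above the healthy range, and lower in replicates 1 and 4. Myh4 encodes a fast myosin heavy chain (ENSRNOG00000049695, chromosome 10, 53713938 to 53848347). Its row had 167, 126, 101 and 120.4 FPKM in healthy, 106, 28.9, 38.2 and 70.5 in osteoarthritic, 75.85, 73.0, 62.1 and 67.3 in HA and 93.6, 169, 357 and 86.4 in coacervate libraries. Here osteoarthritic replicates 2 and 3 were the lowest of all 16. This row spans 134410 bases, lists 6 transcripts, has an implied length of 20776 bases and overlaps the Myh8 row on the same strand. In GRCr8 the order on the chromosome is Myh3, Myh2, Myh1, Myh4 and Myh8, so counts of neighbouring myosin genes cannot be told apart within it, and its FPKM is per that long length.

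The fast thin-filament genes are the troponins that make contraction answer to calcium. Tnnt3, fast troponin T (ENSRNOG00000020332, chromosome 1, 215666628 to 215683628), had 481, 387, 272 and 473 FPKM in healthy, 288, 224, 289 and 259 in osteoarthritic, 208, 224, 202 and 267 in HA and 333, 523, 995 and 301 in coacervate libraries. Tnni2, fast troponin I (ENSRNOG00000020276, chromosome 1, 215609036 to 215611658), had 135, 122, 85.6 and 119 in healthy, 81.9, 100.2, 133 and 69.5 in osteoarthritic, 70.8, 64.6, 69.9 and 86.2 in HA and 105, 115, 254 and 97.6 in coacervate libraries. Pvalb encodes parvalbumin, which takes up calcium and speeds relaxation (ENSRNOG00000006471, chromosome 7, 119429019 to 119441487). Its levels were 204, 189, 131 and 202 in healthy, 154, 104, 189.8 and 213 in osteoarthritic, 97.0, 93.75, 138 and 165 in HA and 214, 202, 402 and 147 in coacervate libraries. For all 3, the healthy and osteoarthritic libraries overlapped and coacervate replicate 3 was far above the rest.

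Slow genes were less abundant. Myh7, the slow myosin heavy chain (ENSRNOG00000016983, chromosome 15, 33634422 to 33656089), had 31.0, 41.55, 42.6 and 43.3 FPKM in healthy, 29.1, 6.97, 14.05 and 12.8 in osteoarthritic, 25.5, 18.3, 13.6 and 24.1 in HA and 20.7, 70.5, 84.5 and 21.4 in coacervate libraries. Every osteoarthritic and HA library was below every healthy one, while coacervate replicates 1 and 4 were below and 2 and 3 above them. Tnnt1, slow troponin T (ENSRNOG00000028041, chromosome 1, 72889270 to 72899659), had 39.3, 65.4, 59.8 and 78.9 in healthy, 33.8, 22.7, 55.0 and 21.7 in osteoarthritic, 36.9, 38.8, 21.15 and 48.1 in HA and 39.97, 97.1, 103 and 40.01 in coacervate libraries. Tnni1, slow troponin I (ENSRNOG00000009073, chromosome 13, 52624878 to 52637297), had 22.7, 41.5, 29.5 and 32.9 in healthy, 20.9, 12.9, 23.8 and 12.75 in osteoarthritic, 19.8, 21.0, 11.9 and 24.3 in HA and 18.2, 46.0, 52.95 and 22.5 in coacervate libraries. Healthy replicate 1 was the lowest healthy library for each of these 3 slow genes, although it was among the higher ones for the fast genes above.

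Myl2, the slow regulatory light chain (ENSRNOG00000030848, chromosome 12, 39951987 to 39958239), had 17.4, 42.0, 29.6 and 30.5 FPKM in healthy, 19.7, 10.1, 26.1 and 9.23 in osteoarthritic, 17.7, 21.8, 0 and 25.4 in HA and 19.5, 47.7, 54.25 and 19.4 in coacervate libraries. HA replicate 3 had 0 counts of it where the other 15 libraries had 231 to 1492. A count of 0 allows up to 3 counts, or 0.111 FPKM there, for counting error only, and the lowest level elsewhere was 9.23. Its partner in slow fibres, the essential light chain gene Myl3, stood at 32.6 FPKM in the same library, and Myh7 at 13.6. Across all genes, 2 had a 0 in 1 library and at least 200 counts in each of the other 15, and the second was Atp6ap1l, in osteoarthritic replicate 3. The reason for the 0 was not tested.

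Of the genes that both fibre types use, Acta1 (ENSRNOG00000017786, chromosome 19, 56674074 to 56677084) had 1388, 1176, 1015 and 1216 FPKM in healthy, 1086, 418, 571 and 753 in osteoarthritic, 875, 639, 715 and 827 in HA and 975, 1722, 3369.8 and 1033 in coacervate libraries. Ckm (ENSRNOG00000016837, chromosome 1, 80321585 to 80331841), whose enzyme regenerates ATP from phosphocreatine, had 772, 654, 544 and 678 in healthy, 555, 360.3, 411 and 353 in osteoarthritic, 421, 413, 328.5 and 431 in HA and 515, 858, 1683 and 538 in coacervate libraries. Both had all HA libraries below all healthy ones, and 1 osteoarthritic library, replicate 1, inside the healthy range. Mb, myoglobin, the oxygen store of muscle (ENSRNOG00000004583, chromosome 7, 118101634 to 118108864), had 290.2, 363, 288 and 311 in healthy, 221, 145.5, 221 and 157 in osteoarthritic, 184, 179, 177 and 222 in HA and 249, 325, 660.45 and 252 in coacervate libraries. Mb was lower in every osteoarthritic and HA library than in any healthy one.

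Between osteoarthritic and healthy cartilage, no member passed the edgeR quasi-likelihood test (adjusted p under 0.05 over all 14337 genes, of which 0.502% passed). The fitted values nonetheless lay on 1 side: 34 of 35 were lower in osteoarthritic cartilage, with a median log2 fold change of -0.71 (1.64-fold lower), beside 0.01 over all tested genes. At an unadjusted p under 0.05, 14 members were lower (6.91% of all tested genes were), and for 8 the groups did not overlap in normalised counts (3.19% of all). DESeq2 called 2 members, and 2.92% of all genes to which it gave an adjusted p, and limma 0. By fibre class, 10 of 11 fast members were lower (median -0.39), 6 of 6 slow ones (-0.70) and 18 of 18 shared ones (-0.85). The classes were not matched for transcript length, which is taken up below. The smallest p belonged to Igfn1 (-1.90 ± 0.45 SE, adjusted p = 0.0756), Nrap, an anchor of actin at the fibre end (-1.24 ± 0.35, adjusted p = 0.145), and Des, the intermediate filament desmin (-1.10 ± 0.35, adjusted p = 0.187), in edgeR. Mylpf was the exception at 0.14 ± 0.30, and it was -0.45 without osteoarthritic replicates 2 and 3 and -0.06 in limma. Without osteoarthritic replicate 1, 5 members were called and 7.83% of all tested genes. The coacervate libraries enter through the shared estimate of spread: 1 member was called without replicate 3 (0.691% of all) or 4 (0.495%), and 3 without replicates 2 and 3 (0.725%).

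Between HA-treated and osteoarthritic cartilage no difference was called. No member passed in edgeR (0% of all tested genes passed), nor in DESeq2 or limma. The median log2 fold change against osteoarthritic cartilage was -0.06, beside -0.01 over all tested genes, with 13 members higher and 22 lower. Mylpf had the smallest p (-0.70 ± 0.30, edgeR adjusted p = 0.745) and alone was under an unadjusted p of 0.05, where 4.08% of all tested genes were lower. Tnni2 (-0.59 ± 0.31) and Pvalb (-0.55 ± 0.29) came next, both with an adjusted p = 0.745 in edgeR. Mylpf and Tnni2 had their highest osteoarthritic level in replicate 3, and Pvalb in replicate 4. The median was -0.33 over the fast, -0.05 over the slow and 0.05 over the shared members. Without osteoarthritic replicates 2 and 3 it was -0.21 over the fast and 0.26 over the slow members. A p above the threshold does not show that the groups were alike.

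Against healthy cartilage, the HA group was lower for 35 of 35 members, with a median of -0.75 (1.68-fold lower), beside 0.00207 over all tested genes. Again none passed in edgeR (0.16% of all tested genes did), DESeq2 or limma. At an unadjusted p under 0.05, 22 members were lower (3.84% of all), and 23 did not overlap between the groups (4.76% of all). The smallest p belonged to Trdn, triadin, which ties the release channel to calsequestrin (-1.12 ± 0.34 SE, edgeR adjusted p = 0.290), Tnnt3 (-0.86 ± 0.31, adjusted p = 0.436) and Actn3, the fast alpha-actinin of the Z-disc (-0.90 ± 0.32, adjusted p = 0.436). When edgeR was fitted to these 8 libraries alone, 22 members were lower and called, beside 2.72% of all tested genes called in either direction, among them Trdn (-1.13, adjusted p = 0.0261), Tnnt3 (-0.87, adjusted p = 0.0357) and Actn3 (-0.90, adjusted p = 0.0336). Osteoarthritic and HA cartilage were compared with the same healthy libraries, so their values against healthy cartilage are not independent. Trdn had 17.7, 19.1, 14.1 and 15.6 FPKM in healthy, 10.95, 4.46, 7.68 and 8.05 in osteoarthritic, 4.50, 8.89, 6.85 and 10.4 in HA and 13.6, 23.7, 37.8 and 11.47 in coacervate libraries. Every healthy value of Trdn was above every osteoarthritic and HA value, with coacervate replicates 1 and 4 between. The 18 shared members all had groups that did not overlap, as did 4 of 11 fast and 1 of 6 slow ones.

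Muscle genes were higher in the coacervate group than in osteoarthritic cartilage, and 1 member rose. This was Igfn1 (ENSRNOG00000026087, chromosome 13, 52791606 to 52834134), with 3.07, 2.49, 1.56 and 1.82 FPKM in healthy, 1.01, 0.23, 0.49 and 0.55 in osteoarthritic, 1.08, 0.96, 0.92 and 1.10 in HA and 1.75, 3.63, 6.50 and 1.24 in coacervate libraries. All 4 coacervate values were above all 4 osteoarthritic ones. The log2 fold change was 2.47 ± 0.46 SE (5.55-fold, edgeR adjusted p = 0.0497). It passed in 5 of 27 alternatives, whose adjusted p ran from 1.4e-05 in DESeq2 to 0.471 without coacervate replicates 2 and 3. In that last fit Igfn1 stood at 1.32 ± 0.36, and with 1 library left out it ran from 1.88 to 2.82. Nrap (1.60 ± 0.35, edgeR adjusted p = 0.0812) and Des (1.53 ± 0.36, adjusted p = 0.0924) had the next smallest p and did not pass, and they stood at 0.72 and 0.74 without coacervate replicates 2 and 3. Nrap had 22.8, 25.4, 19.5 and 20.6 FPKM in healthy, 15.5, 4.04, 6.82 and 9.06 in osteoarthritic, 13.5, 10.53, 11.3 and 11.52 in HA and 15.7, 29.6, 50.7 and 15.0 in coacervate libraries. Des had 100.55, 98.5, 72.4 and 57.7 in healthy, 62.9, 17.6, 28.2 and 37.04 in osteoarthritic, 48.25, 56.0, 38.7 and 54.8 in HA and 62.5, 107, 200.4 and 65.5 in coacervate libraries. In both genes osteoarthritic replicate 1 lay at the level of coacervate replicates 1 and 4 in FPKM, although the groups did not overlap in normalised counts.

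Beyond Igfn1, all 35 members had a higher fitted level in the coacervate group than in osteoarthritic cartilage, with a median of 0.9997 (2.00-fold), beside -0.01 over all tested genes. The median was 0.77 over the fast, 0.90 over the slow and 1.39 over the shared members. Of all tested genes 0.146% passed. At an unadjusted p under 0.05, 29 members were higher (9.05% of all) and 6 did not overlap (2.47% of all). DESeq2 called 19 members and limma 0; the DESeq2 share of all genes with an adjusted p was 5.91%. The count was 18 without osteoarthritic replicate 1 (14.3% of all tested genes were called then), 8 without osteoarthritic replicate 4 (9.54%) and 0 without any other single library. The median was 0.66 without coacervate replicate 3, and 0.27 with 31 of 35 higher without coacervate replicates 2 and 3. Without osteoarthritic replicates 2 and 3 the median was 0.98 over the fast and 1.25 over the slow members.

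Set against the HA group, the coacervate group was again higher for 35 of 35 members, with a median of 1.15 (2.22-fold), beside -0.00152 over all tested genes. None passed in edgeR, as for all genes (0%), whereas DESeq2 called 23 (2.31% of all genes with an adjusted p) and limma 0. Without osteoarthritic replicates 2 and 3, 2 were called in edgeR (1.04% of all). At an unadjusted p under 0.05, 33 members were higher (5.13% of all), and 23 did not overlap (4.35% of all). Trdn (1.53 ± 0.34 SE, edgeR adjusted p = 0.138), Tnnt3 (1.30 ± 0.31, adjusted p = 0.155) and Actn3 (1.32 ± 0.33, adjusted p = 0.155) had the smallest p. Without coacervate replicates 2 and 3 these were 0.74, 0.53 and 0.60. The medians of the fast, slow and shared members were 1.05, 0.94 and 1.24. The median of all was 0.65 without coacervate replicate 3 and 0.41 without replicates 2 and 3, when 34 of 35 stayed positive. The comparisons of the coacervate group share its libraries and are not independent.

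Against healthy cartilage, the coacervate group was higher for 35 of 35 members with a median of 0.42 (1.34-fold), beside 0.00447 over all tested genes. None passed in edgeR (0% of all tested genes), DESeq2 or limma, and 0 members were under an unadjusted p of 0.05, where 1.99% of all tested genes were higher. Pgam2, the muscle phosphoglycerate mutase (0.46 ± 0.25 SE), Acta1 (0.59 ± 0.33) and Casq1, the fast calcium store protein calsequestrin (0.53 ± 0.30), had the smallest p, each with an edgeR adjusted p = 1.0. The direction rested on a pair of libraries. The median was -0.075 without coacervate replicate 3 and -0.34 without replicates 2 and 3, when 0 of 35 were higher, and Acta1 was then -0.24, Casq1 -0.15 and Pgam2 -0.072.

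**Figure D3:**
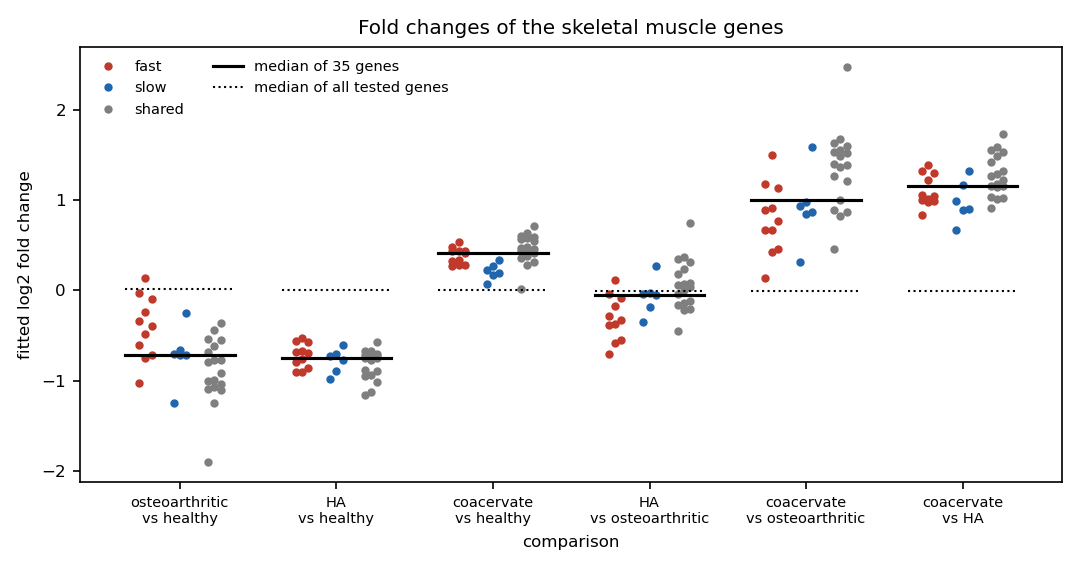
Fitted log2 fold change of each of the 35 genes in the 6 comparisons, coloured by fibre class, with the median of the 35 genes (solid) and of all tested genes (dotted). Members lie below 0 in the comparisons of osteoarthritic (except Mylpf) and HA cartilage with healthy cartilage, and above 0 in the 3 comparisons of the coacervate group; the comparisons share groups.

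Coacervate replicates 2 and 3 differed from each other in make-up. Relative to the median of the other 3 coacervate libraries, replicate 3 was 1.94 to 4.48 times higher in FPKM (median 2.89 over 35 members, 2.57 over the fast and 2.46 over the slow ones). Replicate 2 against the mean of replicates 1 and 4 gave a median of 1.35 over the fast members (range 1.01 to 1.87) and 2.35 over the slow ones (1.68 to 3.35). Replicate 3 over replicate 2 was 1.89 to 2.35 for the 11 fast members and 1.06 to 1.27 for the 6 slow ones, ranges that did not touch. Replicates 2 and 3 are single libraries and genes are not independent replicates, so these ranges measure no spread between libraries.

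The balance of fast to slow fibres varied between single libraries more than between groups. Summed FPKM of the fast members over that of the slow ones was 13.2, 6.87, 6.14 and 7.63 in healthy replicates 1 to 4, 9.37, 13.1, 8.43 and 15.7 in osteoarthritic, 7.46, 7.31, 13.3 and 7.62 in HA and 11.7, 5.92, 10.3 and 9.20 in coacervate libraries. Group means were 8.47 ± 3.24, 11.6 ± 3.35, 8.93 ± 2.94 and 9.29 ± 2.47 (SD, n = 4), and all groups overlapped. The differences of mean log2 ratio were 0.48 between osteoarthritic and healthy, -0.39 between HA and osteoarthritic and -0.32 between coacervate and osteoarthritic cartilage, beside SDs of 0.41 to 0.49 within groups. These ratios were not tested. High ratios came about in different ways. Healthy replicate 1 had 2625 FPKM of fast and 198 of slow members, the fewest slow and the most fast of its group. HA replicate 3 had 1300.02 of fast members, like HA replicates 1 and 2 at 1300.5 and 1335, but 97.4 of slow ones, against 174 and 183. Leaving out the Myl2 row kept HA replicate 3 at 13.3, the highest of its group, beside 8.30 to 8.59 in the others.

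The 7 partner pairs lay on the same side of their medians in some libraries and were split in others. In healthy replicate 1 and coacervate replicate 3 all 7 pairs were above their own median over the libraries, and in healthy replicates 2 and 3 and HA replicate 4 all 7 were below. In HA replicate 3, 5 of 6 pairs with a value were above. The pairs were split in healthy replicate 4 (3 above, 4 below), osteoarthritic replicate 3 (3 and 4) and osteoarthritic replicate 1 (4 and 2). Coacervate replicate 2 was below in 6 of 7, and had the lowest ratio of all libraries for Mylpf over Myl2 (8.97), Myl1 over Myl3, the essential light chains (3.64), and Tnni2 over Tnni1 (2.51). Tnnt3 over Tnnt1 ran from 4.55 in healthy replicate 3 to 12.2 in healthy replicate 1, and Tnnc2 over Tnnc1, the calcium-binding troponins, from 5.60 in osteoarthritic replicate 3 to 13.9 in healthy replicate 1. The myosin-binding protein pair, Mybpc2 over Mybpc1, moved least, from 0.716 to 1.10. It is among the 7 pairs, but Mybpc1 is counted above with the genes that both fibre types use. Mylpf over Myl2 moved most, from 8.97 to 49.8 in osteoarthritic replicate 2.

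**Figure D4:**
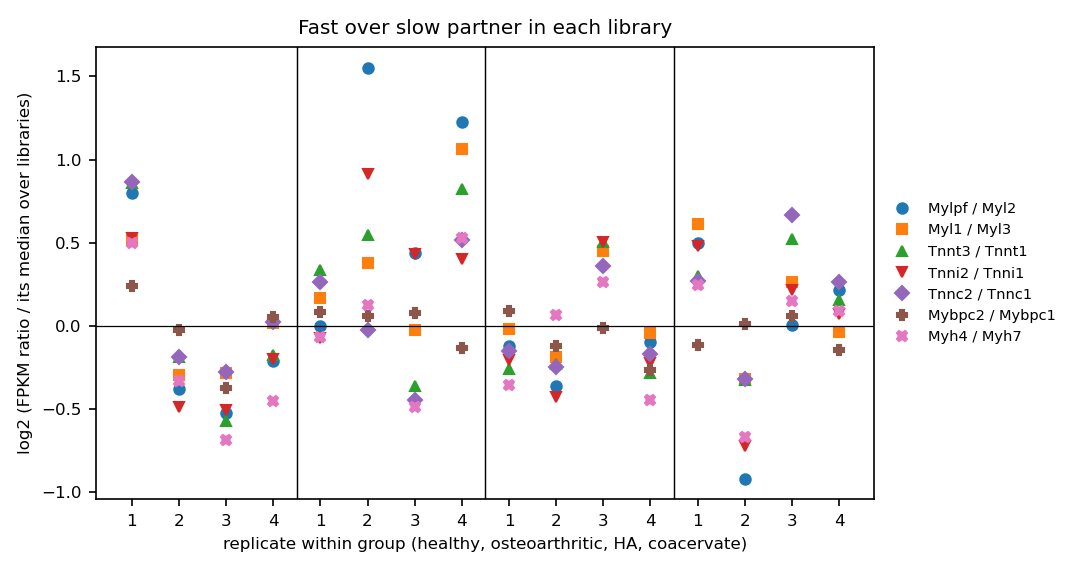
Ratio of FPKM between the fast and the slow partner of 7 pairs in each library, as log2 relative to that pair's median over libraries. Mybpc1, the second gene of its pair, is counted among the shared members. Groups are separated by lines, and Mylpf over Myl2 has no point in HA replicate 3. All pairs are above 0 in healthy replicate 1, and coacervate replicate 2 has the lowest values of 3 pairs.

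Within the osteoarthritic group the levels of the members differed with implied transcript length. Neb, nebulin, the ruler of the thin filament, with an implied length of 23885 bases, had 15.7, 1.88, 4.36 and 13.8 FPKM in osteoarthritic replicates 1 to 4 and 14.6 to 18.8 in healthy libraries. Ryr1, of 17240 bases, had 8.32, 1.29, 1.81 and 5.21. Mylpf, of 837 bases, was instead higher in replicates 2 and 3 (505 and 599.9) than in 1 and 4. The log2 ratio of replicates 2 and 3 to 1 and 4 was set against length. Its median was 0.45 over the 17 members shorter than 2000 bases (range -0.57 to 1.35). Over the 18 longer ones it was -0.78 (-1.92 to 0.95), so the ranges overlapped. The 0.95 belonged to Tnni2, whose row lists 7 transcripts. The implied length of Tnni2 is 2024 bases over a span of 2623 bases, and its FPKM is per that implied length. Across the 35 members the Pearson r of this log2 ratio with log2 length was -0.86, and across 14323 tested genes, -0.42. These r describe genes within the same 4 libraries, and genes are not independent replicates.

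**Figure D5:**
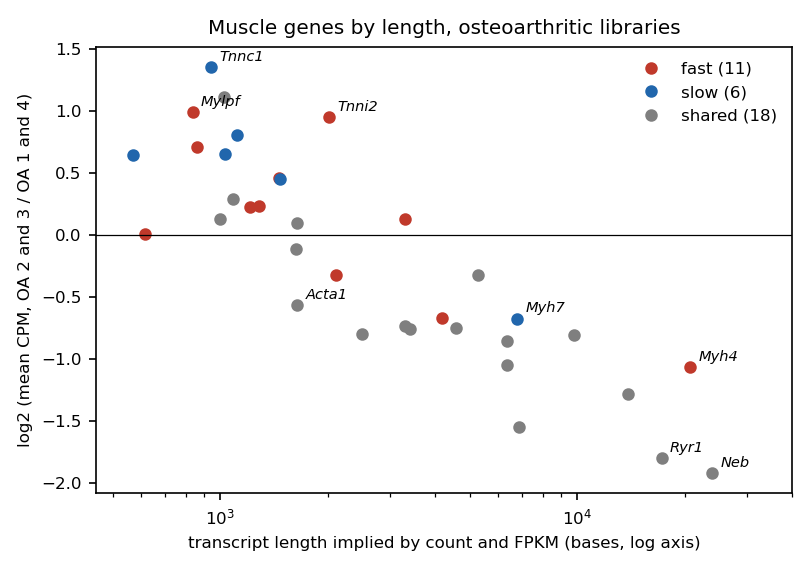
Log2 ratio of mean normalised counts scaled by library size in osteoarthritic replicates 2 and 3 over replicates 1 and 4 against implied transcript length in bases on a log axis, 1 point per muscle gene coloured by fibre class. Points fall from 1.35 (Tnnc1) at short lengths to -1.92 (Neb) at the longest.

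A fall with length was also present over all tested genes, which include the 35. All tested genes under 1000 bases had a median of 0.57 in this ratio, beside 0.68 for 6 muscle genes. Those of 8000 bases or more had -0.93, beside -1.28 for 5 muscle genes, among them the Myh4 row described above. Between 2000 and 4000 bases the medians were -0.04 over all tested genes and -0.53 over 6 muscle genes, and the slopes were not compared by a test. Median fold changes between osteoarthritic and healthy cartilage were -0.53 for the short and -0.997 for the long members, and -0.76 and -0.61 without osteoarthritic replicates 2 and 3. With a length trend removed from each library they were -0.67 and -0.81, and 35 of 35 members were lower. The fast and slow medians, -0.39 and -0.70 above, were -0.58 and -1.04 without osteoarthritic replicates 2 and 3. With the trend removed they were -0.61 and -0.89. Igfn1, Nrap and Des, which had the smallest p there, have implied lengths of 9781, 6364 and 2492 bases. Haemoglobin shares, given above, were also highest in replicates 2 and 3, and the part of length or of these libraries' make-up in the muscle values was not tested further.

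Other muscle genes followed the members. Of 58 tested genes of the sarcomere, of calcium coupling and of muscle energy supply outside the 40, 58 were lower in osteoarthritic than healthy cartilage (median -0.66), and 0 passed in edgeR, with 25 lower at an unadjusted p under 0.05 (6.91% of all tested genes were). In the coacervate group, the 29 sarcomere, 15 coupling and 14 energy genes were all higher than in osteoarthritic cartilage, with medians of 1.15, 1.01 and 0.82. None was called in edgeR, and 48 of the 58 were higher at an unadjusted p under 0.05 (9.05% of all). Without coacervate replicates 2 and 3, 47 of 58 were higher with a median of 0.22. The tropomyosin gene Tpm1, which shields actin from myosin, had 234 ± 31.6 FPKM in healthy, 174 ± 28.3 in osteoarthritic, 147 ± 23.2 in HA and 259.6 ± 107 in coacervate cartilage (SD, n = 4). Atp2a2, a calcium pump gene, had 45.8 ± 4.63, 33.9 ± 13.8, 41.7 ± 2.89 and 51.1 ± 15.5 in the same order. Which cells the transcripts of Tpm1 and Atp2a2 came from is not shown by bulk libraries.

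Of 14 satellite cell and myogenic genes, 3 were under 1 FPKM in all 16 libraries, namely Pax7 and Myf5 of satellite cells and the fusion gene Mymx, and 5 were at 1 or more in all of them. The 5 were Mef2c (8.47 to 26.5), Mef2a (8.16 to 22.4), the late myogenic factor Myf6 (1.08 to 8.75), Itga7 (1.14 to 6.45) and Cdh15 (1.62 to 4.23), while Myod1 ran from 0.25 to 2.17. Of 13 genes linked to denervation and atrophy, 4 were under 1 in all libraries, among them the acetylcholine receptor subunits Chrna1 and Chrnd and its organiser Musk, and 7 were at 1 or more in all. Of 7 heart genes, 6 were under 1 in all libraries, and Myh6, an atrial heavy chain, reached 6.31 in coacervate replicate 3 and 6.23 in replicate 2. Summed FPKM of the embryonic and neonatal isoform genes Myh3, Myh8 and Myl4 was 15.2 in coacervate replicate 3 and 4.98 to 8.30 in the other 15 libraries. Myh8 overlaps the Myh4 row. Bulk libraries do not show which cells the transcripts of these lists, such as Mef2c and Mef2a, came from.

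Smooth muscle genes were also highest in coacervate replicate 3. Their summed FPKM over 10 genes was 311 there and 81.3 to 163 elsewhere. All 9 tested were higher in the coacervate group than in osteoarthritic cartilage (median 0.78). At an unadjusted p under 0.05, 6 were higher (9.05% of all tested genes were), and none was called in edgeR. Without coacervate replicates 2 and 3, 7 of 9 were higher with a median of 0.09. Against healthy cartilage their median was -0.29 in both osteoarthritic and HA cartilage, beside -0.71 and -0.75 for the skeletal genes, and osteoarthritic replicate 1 (153) was above every healthy library (121 to 150.5). Acta2, the smooth muscle actin, had 118 FPKM in coacervate replicate 3 and 55.2 in replicate 2, with 23.7 to 48.6 in the other libraries. Tendon genes summed to 366 FPKM in coacervate replicate 3 and 129.65 to 341 elsewhere, and adipocyte genes to 858 and 1176 in osteoarthritic replicates 2 and 3 and 229 to 556 elsewhere. Cartilage genes summed to 898 to 1047 in the 4 coacervate libraries, so their total differed little where the muscle share ranged from 0.905% to 3.04%. The part of these other cell types in the muscle values was not tested.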

How the data were processed

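Poly(A) RNA of 16 libraries was sequenced from both ends, per the labels' protocols. The kit marks strand by dUTP. Tools listed in the submitters' processing notes, without their roles, are StringTie 2.1.6, HISAT2 2.2.1, cutadapt 1.9, edgeR and DESeq2, and the build is rn6; the annotation, the counting tool and its strand setting are not given in the sources used here. The deposited table gives whole-number counts per gene, not normalised by the authors, and FPKM values, scaled by the authors to length and depth, per the file headers. Genes that overlap are uncertain for that reason; among the members these are Myh4 with Myh8, Nrap with Habp2, Myh7 and Ckm with minor rows.

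The 14337 genes that reached 1 FPKM in 4 or more libraries were tested on counts with edgeR 4.0.16 (quasi-likelihood, TMM scaling, 4 group means, Benjamini-Hochberg over all tested genes, threshold 0.05). Levels are FPKM, ratios of sums use FPKM, and implied length is count over FPKM. Overlap of groups was judged on normalised counts, scaled by library size and by the TMM factors. DESeq2 1.42.0 and limma 3.58.1 on log2(FPKM + 1) and log2(FPKM + 0.1) were alternatives, with other scalings, filters, the 2 groups alone, each library left out and the replicate number as a block (R 4.3.3, python 3.11.15). The edgeR procedure was tested on simulated data. Promoters are RefSeq's, GRCr8.

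The members and lists were chosen with earlier results of these data known, so no p is adjusted over the list alone and the list's counts and medians carry no test. A panel of members (Acta1, Ckm, Mb, Myh4, Myh7, Mylpf, Myl2, Tnnt3, Tnnt1, Tnni2, Tnni1 and Pvalb) and any called member are given by library, and the 3 members with the smallest p are named in each comparison; other members were named after their values were seen. Fragments were amplified and carry no molecular identifiers, so counting floors cover counting error only. Libraries held 36988722 to 50725189 counts. Few same-numbered libraries deviated together (4 of 24 pairs had r over 0.1), and the labels do not say that a number marks a pairing. Replicate numbers were therefore not taken to pair them.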

Additional observations from a re-analysis of the deposited data

Results flagged for a closer look

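In 6 of 76 groups of 4 libraries examined, 1 library lay far from the other 3 for its distance over the range of the group (Dixon's test at 95%); chance does so in about 1 in 20 groups. In the HA group, replicate 4 had the highest summed FPKM of fast members, 1705 beside 1300.02 to 1335, and the highest Mb, 222 FPKM beside 177 to 184. HA replicate 3 had the highest log2 ratio of fast to slow members, 3.74 beside 2.87 to 2.93. Healthy replicate 1 had the lowest Myh7, 31.0 FPKM beside 41.55 to 43.3. Coacervate replicate 3 had the highest Mylpf, 922 FPKM beside 381 to 466, and the highest Tnni2, 254 beside 97.6 to 115.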

How the results depend on the processing

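The number of members called was the least stable result. Between coacervate and osteoarthritic cartilage it was 1. It was 0 with a replicate block, in limma at both pseudocounts, without a filter and with only these 2 groups in the fit. It was also 0 without osteoarthritic replicates 2 and 3, with the length offset and without coacervate replicates 2 and 3. An FPKM minimum of 5 gave 0 too, but that filter left out Igfn1, which passed 5 only in coacervate replicate 3 (6.50). Its call could not recur there. DESeq2 gave 19, and leaving out 1 library gave 0 to 18. Between osteoarthritic and healthy cartilage it was 0, and 2 in DESeq2, 3 without coacervate replicates 2 and 3 and 0 to 5 with 1 library left out. Between coacervate and HA it was 23 in DESeq2 and 2 without osteoarthritic replicates 2 and 3, and between HA and healthy 22 with only these groups fitted; the other alternatives gave 0. The block changed no other count. Of 16 libraries, 1 correlated best with its own number. This does not settle whether same-numbered samples share more than a number, and the labels do not say. The cause of these moves was not tested, except that fewer libraries enter some fits. The length offset, the removal of coacervate replicates 2 and 3 and of the Myl2 or Myh4 row were chosen after seeing the data.

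Median fold changes with 1 library left out ran from -0.73 to -0.52 (osteoarthritic against healthy), -0.83 to -0.68 (HA against healthy), -0.22 to 0.027 (HA against osteoarthritic), 0.66 to 1.18 (coacervate against osteoarthritic), 0.65 to 1.38 (against HA) and -0.075 to 0.61 (against healthy). Without coacervate replicates 2 and 3 they were 0.41 against HA and -0.34 against healthy. Reversed single genes were Mylpf between osteoarthritic and healthy (-0.0598 and -0.0600 in limma at pseudocounts 1 and 0.1, -0.45 without osteoarthritic replicates 2 and 3, -0.12 with the length offset, -0.067 without osteoarthritic replicate 3, and -0.067 to 0.31 over the libraries left out) and, between coacervate and healthy without coacervate replicates 2 and 3, Pgam2 (-0.072, and -0.012 to 0.60 over the libraries left out, lowest without replicate 3), Acta1 (-0.24) and Casq1 (-0.15). Shares of counts with haemoglobin genes left out were 1.38% in healthy, 0.832% in osteoarthritic, 0.797% in HA and 1.86% in coacervate libraries. As shares of summed FPKM they were 0.852%, 0.550%, 0.547% and 1.16% in the same order. The log2 ratio of fast to slow members moved by less than the spread between replicates in each alternative run. Its difference between HA and healthy nonetheless ran from -0.12 to 0.33 with 1 library left out. Between coacervate and HA it ran from -0.063 to 0.27, so the sign changed in both, while the other comparisons kept theirs.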
